A study of Drosophila melanogaster with 2 samples.

Results

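The intergenic summits described here are 257 of the 3393 peaks (7.57%) on the 6 arms (2L and 2R, 3L and 3R, chromosome 4 and X) in chromatin immunoprecipitation and sequencing (ChIP-seq) of Inv-eGFP, a fusion of Invected with enhanced green fluorescent protein. A peak was a member when its summit lay more than 500 bp from every transcription start site (TSS) of a protein-coding gene and outside every protein-coding gene. Of the other peaks, 2747 had the summit within 500 bp of a TSS and are called promoter summits, and 389 lay inside genes. The chromatin came from whole Drosophila melanogaster embryos aged 0 to 24 h of the strain inv-GFP, in which an insertion targets the gene inv, and it was precipitated with an antibody against GFP. The samples formed 1 group of 2 biological replicates, and no other condition was part of the design. A collection that spans all of embryogenesis mixes many cell types and stages, so a peak can come from a small share of the cells. The main set was the larger list that the authors made from both replicates pooled. Replicate 1 alone gave 2858 listed peaks on the arms and replicate 2 alone gave 2129. Read counts and control libraries were not analysed here, so the depth behind the peaks is unknown.

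Invected, a transcription factor with a homeodomain, is the paralog of Engrailed. Both mark the posterior compartment of each segment of the fly embryo, and the class of homeodomains to which they belong binds DNA through a core of the letters TAATTA. Intergenic DNA of the fly holds enhancers, which act on promoters at a distance, and also genes that make no protein. Such genes include the transfer RNA (tRNA) genes, which RNA polymerase III transcribes from sequences inside the gene called the A box and the B box. The letters GTTCGA are part of the B box of many tRNA genes. The letters TATCGATA are the core of the DNA replication-related element (DRE), which the factor DREF binds at many housekeeping promoters and whose letters the insulator protein BEAF-32 also recognises.

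Both kinds of sequence occurred at the intergenic summits. The first 3 sequences are tRNA genes within 100 bp of the summits of highest signal at such genes on the arms printed here, written along the gene's own strand, with GTTCGA in capitals where it occurs. They lay on chromosome arm 3R of the dm6 build, at chr3R:7130947-7131018 (minus strand), chr3R:19790972-19791044 (plus strand) and chr3R:17619961-17620032 (plus strand).
tRNA:Gly-TCC-1-2: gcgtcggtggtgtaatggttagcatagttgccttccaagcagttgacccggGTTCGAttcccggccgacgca
tRNA:Ala-AGC-2-11: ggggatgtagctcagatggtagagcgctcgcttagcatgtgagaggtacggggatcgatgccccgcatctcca
tRNA:Pro-TGG-1-2: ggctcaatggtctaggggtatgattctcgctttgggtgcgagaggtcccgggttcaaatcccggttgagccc
Of these genes only tRNA:Gly-TCC-1-2 holds GTTCGA. The next 4 sequences are windows of 101 bp centred on the summits of highest signal with TATCGATA, written on the plus strand with those letters in capitals. They lay at chr4:696865-696965, chr3L:174648-174748, chrX:20760691-20760791 and chr3R:4479736-4479836 of dm6, and are named by the protein-coding genes on either side.
myo to ey: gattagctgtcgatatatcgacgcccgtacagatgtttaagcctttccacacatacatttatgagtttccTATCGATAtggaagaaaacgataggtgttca
p130CAS to CG7049: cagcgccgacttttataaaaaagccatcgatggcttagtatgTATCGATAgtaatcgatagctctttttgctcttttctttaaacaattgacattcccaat
CG15452 to shakB: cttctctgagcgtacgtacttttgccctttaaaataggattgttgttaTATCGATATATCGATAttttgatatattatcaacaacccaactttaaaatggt
CG31523 to sac: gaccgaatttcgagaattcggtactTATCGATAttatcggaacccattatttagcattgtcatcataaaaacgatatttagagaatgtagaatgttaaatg
The window between CG15452 and shakB holds the letters in adjoining copies. The genome sequence is RefSeq's Release 6.

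Intergenic summits were spread over all 6 arms and most lay within a few kilobases of a gene. The DNA that meets the rule came to 39.9 Mb, or 29.9% of the arms, so there were 6.43 members per Mb of it. The count was 71 on 2R (8.95 per Mb), 60 on 3R (7.15 per Mb), 48 on 3L (4.99 per Mb), 42 on 2L (5.63 per Mb) and 29 on X (4.65 per Mb). Chromosome 4, which is small and largely heterochromatic, had 7 members in 298 kb, or 23.5 per Mb, a rate that rests on few peaks. Of those 7, 1 overlapped a listed peak of replicate 1 and 2 overlapped one of replicate 2. The members beside toy and ci, and 2 overlapping members between ey and bt, lay at copies of transposable elements. The nearest TSS was 500 to 1000 bp away for 65 members, 1000 to 5000 bp for 122 and farther for 70, with a median of 2079 bp. No member lay within 500 bp of the start of an mRNA in the RefSeq annotation. The peaks of 238 members had the common width of 424 bp, and 39 members overlapped another main-set peak, so that the 257 members formed 240 separate regions.

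Close to the distance limit, peaks stood on either side of it. At 502 bp, the summit near Dgat2 on 2R had a signal of 87.5, and at 504 bp the summit near CG12728 on X had a signal of 109. On the other side of the limit, the summit 497 bp from AttD on 3R had a signal of 118 and the summit 487 bp from wgn on X had a signal of 155. The signal is the authors' own value for each peak, on a scale that is not stated, and serves here for order and description inside 1 list. The member farthest from any TSS lay between Or67d, an odorant receptor gene, and CG12362 on 3L, 52086 bp away, with a signal of 82.3, and overlapped a listed peak of neither replicate. The next lay between CG10651 and CG17571 on 2L, 43461 bp away, with a signal of 85.4 and a listed peak in replicate 1. The member 40538 bp from a TSS, with a signal of 82.8, lay beyond Cadps at the end of chromosome 4, at annotated copies of TART-A and HeT-A, the retrotransposons that maintain fly telomeres.

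Intergenic summits had lower signals than promoter summits. Their median was 92.6, against 162 at promoter summits and 78.1 inside genes, and it was 132 over the whole main set. The members ran from 2.56 to 998, and 61 of 257 (23.7%) fell in the upper 50% of the main set by signal. No test was made, because the samples form 1 group and peaks are not replicates.

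**Figure D1:**
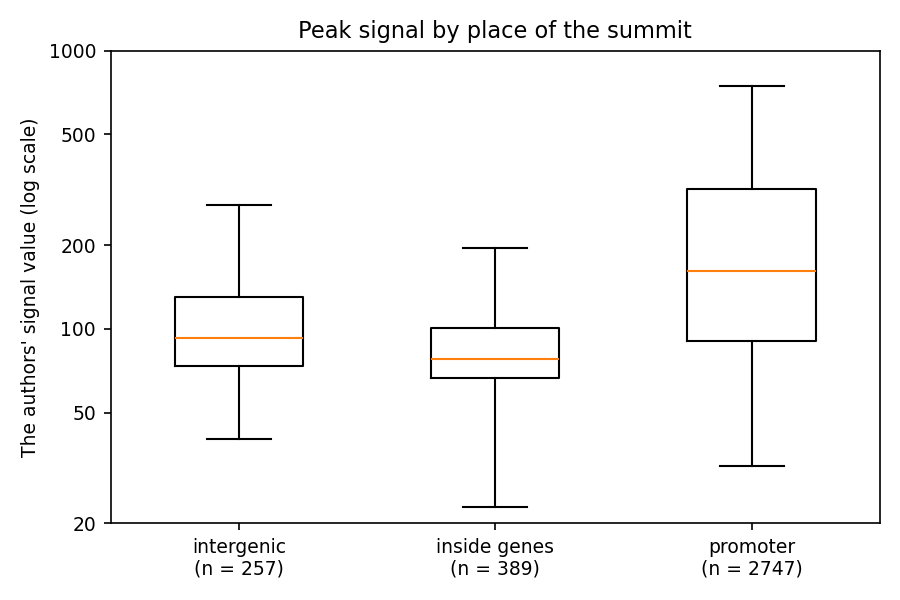
Signal of each main-set peak, in the authors' units on a log scale, for 257 intergenic summits, 389 summits inside genes and 2747 promoter summits. Lines mark medians (92.6, 78.1 and 162), boxes the middle 50% and whiskers the 5th to 95th percentiles; the intergenic median lies between the others and the boxes overlap.

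Fewer intergenic summits than main-set peaks overlapped a listed peak of each replicate. Of the members, 48 (18.7%, 95% Clopper-Pearson interval 14.1 to 24.0%) overlapped a listed peak of both replicates by at least 1 bp, against 50.5% of all main-set peaks. A listed peak of replicate 1 was overlapped by 117 members (45.5%), against 76.0% of the main set, and one of replicate 2 by 113 members (44.0%), against 58.8%. Neither list held a peak at 75 members (29.2%), against 15.6% of the main set. The smaller pooled list that the authors call conservative overlapped 121 members (47.1%), against 72.5% of the main set. Overlap with both replicates was seen for 43 of 389 summits inside genes and for 1623 of 2747 promoter summits. Within the members, 44 of the 129 of higher signal overlapped both lists and 4 of the other 128 did. The pooled signal comes from the same 2 replicates, so it is not independent of this overlap. Intervals here cover counting error only.

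Signals of the replicates come from separate lists and are not on 1 scale. The 3393 main-set peaks were therefore also placed in order by the value of the overlapping peak in each replicate's own ranked list, with place 1 the highest and peaks without a match sharing the lowest place. Among the 12 members of highest signal that overlapped both replicates' lists, the first lay between CG34460 and Ugt37C1, a gene of the UDP-glycosyltransferase family, at chr2R:16830328-16830723 (dm6). Its signal was 998 in the pooled list, 662 in replicate 1 and 337 in replicate 2, and it ranked 64 in the main set and lay at the noncoding RNA gene lncRNA:CR43650. The second lay between stnB, a gene for synaptic vesicle recycling, and FucTC at chrX:23007499-23007870, with a signal of 892 in the pooled list, 648 in replicate 1 and 247 in replicate 2. The third lay between myo, a TGF-beta family ligand, and ey, the Pax6 gene of eye development, 774 bp from a TSS of ey at chr4:696781-697073. It had a signal of 671 in the pooled list, 492 in replicate 1 and 166 in replicate 2, and its window with TATCGATA is printed above.

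The remaining 9 of these members had pooled signals from 294 to 502. They lay between Ptp4E and CG15468 on X (502), inc and Mur2B on X (416), CG1142 and alpha-Est10 on 3R (410), CG7881 and BubR1 on 2R (401), hth and CG6465 on 3R (391), CG5254 and CG5273 on X (389), nvd and mRpS5 on 3L (371), CG8565 and ArgRS on X (358), and p130CAS and CG7049 on 3L (294). BubR1 is a spindle checkpoint kinase, hth encodes a homeodomain cofactor of the Hox proteins, and ArgRS encodes the arginyl-tRNA synthetase. The member between CG1142 and alpha-Est10 lay at snRNA:7SKa, a gene for 7SK RNA, which restrains the elongation factor P-TEFb. It had 153 in replicate 1 (place 1053) and 250 in replicate 2 (place 114). The member between CG8565 and ArgRS, which lay at a copy of the transposable element INE-1, had 112 in replicate 1 (place 1383) and 243 in replicate 2 (place 123). Against these, the member beside hth had 314 in replicate 1 (place 409) and 71.4 in replicate 2 (place 1311).

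Most gaps with a member held 1. A gap between protein-coding genes held 1 member in 195 cases, 2 in 19 cases and 3 in 8 cases. The gap from CG34460 to Ugt37C1 had 3 members over 11171 bp with signals from 129 to 998. The gap from EcR, the ecdysone receptor gene, to Cyp6w1 had 3 members within 1974 bp with signals from 15.2 to 167, of which 2 lay at tRNA genes. The gap from hng3 to CG13898 had 3 members over 21870 bp (68.3 to 134), that from CG4004 to Paics had 3 over 5483 bp (23.2 to 129), and that from mbl, a splicing regulator gene, to CG10939 had 3 within 785 bp (62.7 to 109), 2 of them at tRNA genes. The other gaps with 3 members, which had lower highest signals, were CG43175 to CG14322, Psc to CG33798 and en to tou. Some of these neighbours overlap, so the members of these 8 gaps are not all separate sites.

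Noncoding genes lay at 79 of the 257 intergenic summits (30.7%, 95% interval 25.2 to 36.8%), counting a gene within 100 bp. The same was true of 7.44% of the bases that meet the rule and of 6.84% of all main-set peaks. tRNA genes made up 42 of these members (16.3%, interval 12.04 to 21.4%), although 0.0938% of the bases that meet the rule lie within 100 bp of a tRNA gene. Of the 389 summits inside genes 32 (8.23%) lay at tRNA genes, and of all 3393 main-set peaks 85 (2.51%) did. The share among members differed between the replicates and was 4.67% with replicate 2 left out and 27.4% with replicate 1 left out. Other noncoding RNA genes lay at 29 of the 257 members and at 7.23% of those bases. Small nuclear RNA genes lay at 6 members and 0.0122% of those bases, and small nucleolar RNA genes at 2 members and 0.0359%. No member lay at a ribosomal RNA gene, against 0.0959% of those bases. Annotated transposable elements lay at 21 of the 257 members, against 11.6% of those bases.

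**Figure D2:**
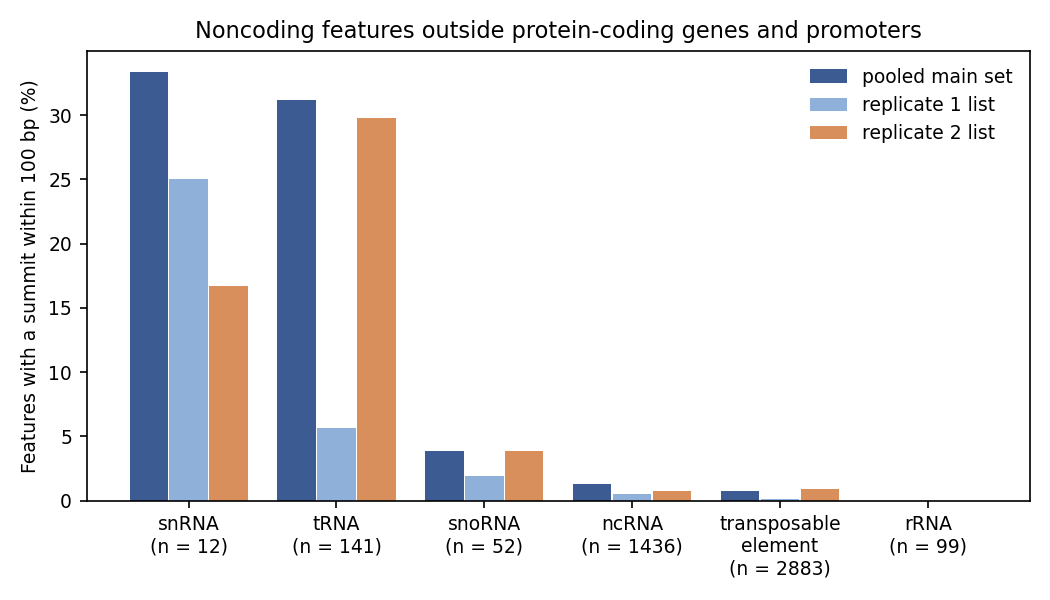
Percentage of annotated noncoding genes and transposable elements, among those that lie wholly in DNA meeting the rule, with a summit within 100 bp in the pooled main set, the replicate 1 list and the replicate 2 list. For tRNA genes the pooled list (31.2%) and replicate 2 (29.8%) stand far above replicate 1 (5.67%), and no ribosomal RNA gene has a summit.

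Counted by gene, 44 of the 141 tRNA genes in DNA that meets the rule (31.2%) had a member within 100 bp, as did 4 of 12 small nuclear RNA genes. The share was 2 of 52 for small nucleolar RNA genes, 19 of 1436 for other noncoding RNA genes (1.32%), 22 of 2883 for transposable elements (0.763%) and 0 of 99 for ribosomal RNA genes. Over all arms, 87 of 290 tRNA genes (30.0%) had a main-set summit of any kind. By the amino acid carried, members lay at 7 of 19 arginine, 6 of 12 leucine, 5 of 8 alanine, 5 of 13 glycine, 5 of 9 proline and 5 of 18 serine tRNA genes. They lay at none of the 4 tyrosine, 3 tryptophan and 3 elongator methionine genes, which are few. The sequence of 37 of the 44 genes with a member (84.1%) is shared in full with another tRNA gene, against 116 of all 141 (82.3%), and how reads that match several copies were placed is not given in the sources used here.

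The strongest member at a tRNA gene lay at tRNA:Gly-TCC-1-2, between CG31248 and CG31493 on 3R, with a signal of 290 in the pooled list, 163 in replicate 1 and 135 in replicate 2. The next lay at tRNA:Ala-AGC-2-11, between Acsx4 and bnl, an FGF ligand gene, with 187 in the pooled list, 48.0 in replicate 1 and 139 in replicate 2. The third lay between CG14326 and CG14323 beside tRNA:Pro-TGG-1-2 and tRNA:Ala-AGC-2-3, with 171 in the pooled list, 26.9 in replicate 1 and 143 in replicate 2. By place, tRNA:Gly-TCC-1-2 took place 998 in replicate 1 and 522 in replicate 2, and tRNA:Ala-AGC-2-11 took places 2595 and 485.

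Members at tRNA genes stood higher in replicate 2 than in replicate 1 without exception. Their median place was 3018.5 by replicate 1 and 1133.75 by replicate 2, and 42 of 42 had the higher place in replicate 2, against 1574 of all 3393 main-set peaks (46.4%). The same was true of 131 of the 215 members at no tRNA gene (60.9%), 269 of 389 summits inside genes (69.2%) and 1132 of 2747 promoter summits (41.2%). A listed peak of replicate 2 alone was overlapped by 28 of the 42 (66.7%), against 8.31% of all main-set peaks, and one of replicate 1 alone by 1 (2.38%), against 25.5%. Both lists were overlapped by 7 and neither by 6. The 43 main-set peaks at tRNA genes that are not members, inside genes or near a TSS, showed the same order, with 42 of 43 placed higher in replicate 2 and 32 overlapping a listed peak of replicate 2 alone. The 2 replicates carry the same label, so nothing in the design sets them apart, and this split was noticed after the values were seen. The part of repeated sequence and of read placement in it was not tested.

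**Figure D3:**
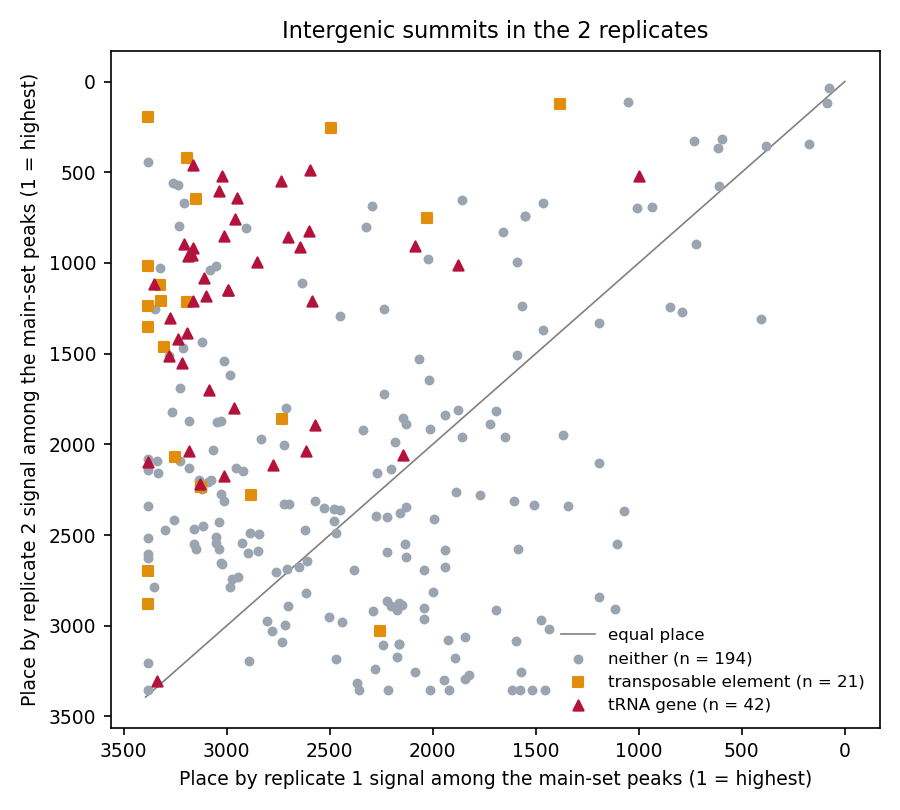
Place of each of the 257 intergenic summits among the 3393 main-set peaks by the signal of replicate 1 (horizontal axis) and of replicate 2 (vertical axis), with place 1 the highest and the line marking equal places. All 42 summits at tRNA genes (triangles) and 20 of 21 at transposable elements (squares) lie above the line.

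Members at transposable elements divided the same way. Of the 21, 17 lay at copies of INE-1, an old and abundant element of the fly genome. INE-1 copies between bin3 and Pld on 2R and between CG43774 and ed on 2L had signals of 245 and 242. The first had 51.2 in replicate 1 and 189 in replicate 2, and the second had no matching peak in replicate 1 and 207 in replicate 2. In all, 20 of 21 took the higher place in replicate 2, the INE-1 members in 17 of 17 cases, and 11 of 21 (52.4%) overlapped a listed peak of replicate 2 alone, against 8.31% of the main set, while none overlapped one of replicate 1 alone, against 25.5%.

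The 157 members at neither a noncoding gene nor a transposable element had median places of 2369 in replicate 1 and 2378 in replicate 2. The higher place was that of replicate 2 for 90 of them (57.3%). A listed peak was overlapped in replicate 1 alone by 58 of the 157 (36.9%), in replicate 2 alone by 20 (12.7%), in both by 26 and in neither by 53, against main-set shares of 25.5% for replicate 1 alone and 8.31% for replicate 2 alone. Leaving out only the tRNA members, 41 of 215 members overlapped both lists, 68 replicate 1 alone and 37 replicate 2 alone.

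Small nuclear RNA genes gave 6 members, led by snRNA:7SKa, then snRNA:U1:95Ca between CG34355 and Pli with a signal of 171 (113 in replicate 1 and 47.7 in replicate 2) and snRNA:U6:96Ac between Esyt2 and REPTOR with 132 (95.4 in replicate 1 and 109 in replicate 2). U1 and U6 RNA are parts of the spliceosome. The members at small nucleolar RNA genes lay at snoRNA:Psi18S-176 (201) and snoRNA:Psi28S-3342 (151), of a class that guides changes of bases in ribosomal RNA. Among other noncoding RNA genes, lncRNA:CR43650 (998), asRNA:CR45009 (892) and lncRNA:CR44127 (401) came first. Of the 29 members at such genes, 15 took the higher place in replicate 2, with median places of 2216 in replicate 1 and 2210 in replicate 2, and 8 overlapped a listed peak of replicate 1 alone and 5 of replicate 2 alone.

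Developmental regulator genes, taken from a list of 115 genes, flanked 30 of the 257 intergenic summits (11.7%, interval 8.02 to 16.2%), while gaps with such a flank hold 7.27% of the bases that meet the rule. The 30 formed 26 separate regions, which the interval does not allow for, and with 1 summit per region the share was 10.8%. It was 7.41% in the conservative list, 8.22% with replicate 1 left out and 11.3% with replicate 2 left out. The nearest TSS was that of such a gene for 11 members (4.28%), and the share of bases with such a nearest TSS was not computed. Of the 30, 4 overlapped a listed peak of both replicates, 10 of replicate 1 alone, 3 of replicate 2 alone and 13 of neither, and none lay at a tRNA gene. The 4 that overlapped both had ey, hth, knrl or hry as a flanking gene.

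Homeobox genes outside the Hox group flanked 13 members, led by those flanked by ey (671) and hth (391). Only 2 of the 13 had the nearest TSS in a gene of the list. The hth member lay 35787 bp from hth and 205 bp from CG6465. The members flanked by the Iroquois gene mirr (123) and the Pax6 gene toy (96.5) were seen in 1 replicate list each. That of mirr was seen in replicate 1 (85.6 there and 25.2 in replicate 2), 22709 bp from mirr and 406 bp from SmD1. That of toy was seen in replicate 2 (85.9, with no matching peak in replicate 1). The member beside toy lay at a copy of INE-1. Gap and pair-rule genes, which divide the early embryo along its axis, had 4 members: knrl (267), the pair-rule gene hairy, annotated as hry (187), eve (114.7) and gt (74.5). The knrl member lay 56219 bp from that gene and 505 bp from Rcd2, and the hry member lay 39505 bp from hry and 191 bp from SrpRbeta. The eve member lay 6483 bp from eve and 56 bp from CG12134.

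Hox genes, which give segments their identity, flanked 4 members, and all had signals under the median of the intergenic summits, 92.6. The median of the 30 members flanked by any developmental regulator, 76.7, was under it too. The member beside Antp had 92.2, that between Ubx and CG31275 at lncRNA:bxd 81.9, that between Glut3 and abd-A 79.9 and that between MSAmiP and Abd-B at lncRNA:iab8 76.0. Those beside Ubx and abd-A overlapped a listed peak of replicate 1 alone, and those beside Antp and Abd-B overlapped neither list. The transcript of bxd runs through the control region of Ubx.

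Segment polarity genes, among them inv and en, flanked 8 members. H15, a T-box gene, had the strongest (156, with 136 in replicate 1 and 26.8 in replicate 2), 538 bp from the gene. The member between Wnt4 and wg, both Wnt ligand genes, had 92.9 and a peak in replicate 1 (98.05) but no matching peak in replicate 2. Downstream of Hedgehog, the gene of the effector ci had a member of 69.9 at a copy of the element 1360, listed in neither replicate. In the gap from en to tou, 3 members had 77.4, 53.5 and 25.99, and none overlapped a listed peak of either replicate. In the gap from E(Pc) to inv, 2 overlapping members had 21.1 and 4.85, and of these only the weaker overlapped a listed peak, in replicate 2. All 5 values beside the tagged gene and its paralog were below the median of the intergenic summits, 92.6. So was the median of the members flanked by any developmental regulator, 76.7.

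Of the other lists, those of Polycomb and Trithorax genes had 5 members, beside Psc (101 and 87.0 the highest), Su(z)2 (90.3), ph-p and ph-d. Psc, Su(z)2 and the ph genes encode subunits of Polycomb repressive complex 1. Ecdysone response genes had 4 members, with EcR (167 and 123) first, both of these at tRNA genes, and Eip75B, an ecdysone-induced nuclear receptor gene, at 59.9. Both members beside bnl lay at tRNA genes too. The Wnt list had 3 members, including 1 beside the co-receptor gene arr (88.3), the Hedgehog list 2 including dally (72.1), the EGF receptor list 2 (vn at 101 and aop at 96.3) and the Dpp list 1 (sog at 88.4). A single ribosomal protein gene, RpLP0, had a member (265), 758 bp from it and found in both replicates, while the Notch, neuroblast and chemoreceptor lists had none. The share of DNA meeting the rule that is flanked by each single list was not computed. Counts per list, here and above, are therefore descriptive and do not show that any list has more or fewer members than its share.

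The letters TATCGATA were more frequent at the intergenic summits than in their flanks. They occurred up to 50 bp from 18 of 257 summits (7.0%), against 1 of the flanking windows centred 500 bp away at lower coordinates (0.389%). The difference was 6.61 percentage points, with 18 pairs having the letters at the summit only and 1 at the flank only (exact two-sided McNemar test, p adjusted over 13 words = 0.000496). Of all 101-bp windows that meet the rule, 0.214% hold them, while 20.7% of the promoter summits and 2.31% of the summits inside genes do. The shorter TATCGA, which is part of TATCGATA and so not independent of it, occurred at 33 summits (12.8%) and 9 flanks (3.50%; exact McNemar test, adjusted p = 0.000496), against 45.8% of promoter summits. Of members that overlapped both replicates' lists, 12 of 48 had TATCGA, and of those at tRNA genes 1 of 42 did. Leaving out replicate 1, and so taking the summits from replicate 2 alone, the difference for TATCGATA was 5.48 points (exact McNemar test, adjusted p = 0.140) and that for TATCGA 6.16 points (adjusted p = 0.207).

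Such summits were found beside ey (671), p130CAS (294), shakB, a gap junction gene (277), and sac (272), whose windows are printed above. All 4, which were taken for their high signal, overlapped a listed peak of both replicates. Of all 18 members with TATCGATA, 7 overlapped both lists, 7 replicate 1 alone, 2 replicate 2 alone and 2 neither. For the 4 printed windows the values of replicate 1 were 492, 215, 173 and 199.1 in that order, and those of replicate 2 were 166, 95.4, 113 and 73.3.

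The Engrailed-class core TAATTA was rarer at the summits than beside them. It occurred at 5 of 257 summits (1.95%), against 25 of 257 flanking windows (9.73%), a difference of -7.78 points with 4 pairs having it at the summit only and 24 at the flank only (exact two-sided McNemar test, adjusted p = 0.000780). Among windows that meet the rule, 7.38% hold it, as do 5.13% of promoter summits and 5.91% of summits inside genes. The median GC content was 42.6% in the summit windows, against 37.6% in the flanks at lower coordinates and 38.6% in those at higher coordinates, and the part of base composition in this difference was not tested. The call did not hold in the upper 50% of members by signal (-6.98 points, adjusted p = 0.114) or in the conservative list (-6.67 points, adjusted p = 0.213), nor with replicate 1 left out (-3.42 points, adjusted p = 0.778) or replicate 2 left out (-3.33 points, adjusted p = 0.617; exact McNemar tests). Without the 42 members at tRNA genes, none of which had TAATTA, the difference was -6.05 points (exact McNemar test, adjusted p = 0.0312). The 5 summits with TAATTA lay beside ArgRS (358), Klp98A (106), Psc (101), sNPF-R (73.2) and, in the gap of the tagged gene itself, inv (4.85).

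GTTCGA, part of the B box, occurred at 27 summits (10.5%) and 11 flanks (4.28%; exact McNemar test, adjusted p = 0.0294). Of these summits, 23 were among the 42 at tRNA genes and 4 among the other 215. The difference was 6.23 points in the pooled list, 14.4 points with replicate 1 left out (adjusted p = 0.00421) and 0.667 points with replicate 2 left out (adjusted p = 1; exact McNemar tests). Without the tRNA members it turned to -1.86 points (exact McNemar test, adjusted p = 0.625). The call was also lost against the flanks at higher coordinates (adjusted p = 0.0542), in windows of 100 bp on each side (0.0928), in the upper 50% of members (0.0512) and in the conservative list (0.250; exact McNemar tests). Of the 44 tRNA genes with a member, 29 hold GTTCGA (65.9%), against 89 of the 141 tRNA genes in DNA that meets the rule (63.1%).

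The other 9 words did not pass the test. The E-box CACGTG came closest, at 7 summits and 1 flank (exact McNemar test, adjusted p = 0.183). Of the 7, 2 were the strongest member between CG34460 and Ugt37C1 and the member between hth and CG6465. The Zelda word CAGGTA occurred at 9 summits and 3 flanks, CAGCTG at 11 and 6, AGATAA at 7 and 12, GGTGGCGC of the CTCF site at 4 and 1, GCATACTT of the Su(Hw) site at 4 and 0, and GGTCACACT, Motif 1, at 1 and 0. GAGAGA occurred at 10 of each and TATAAA at 37 of each. Words were searched on both strands, a match describes the letters only, and the p-values take summits as units, so they say nothing of the spread between collections of embryos.

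**Figure D4:**
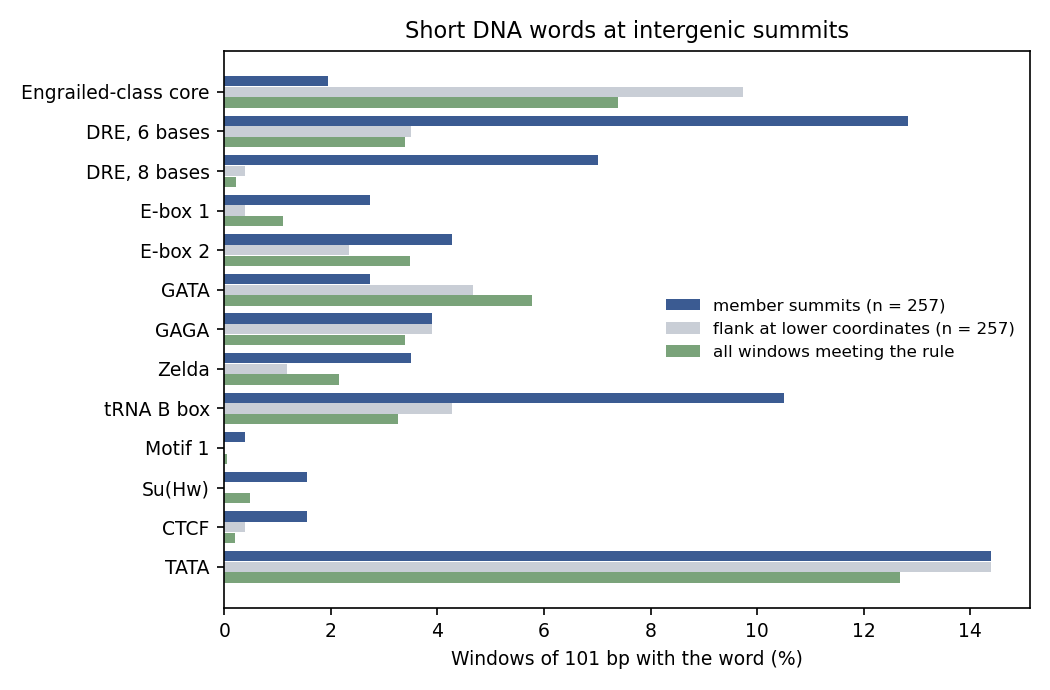
Percentage of 101-bp windows holding each word on either strand, at the 257 intergenic summits, in their flanks at lower coordinates and in all windows that meet the rule. The DRE words and the tRNA B box stand higher at summits, and the Engrailed-class core stands lower (1.95% against 9.73% in the flanks).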

How the data were processed

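ChIP-seq peak lists from 2 biological replicates were analysed. Per the labels, chromatin was sonicated to 200 to 800 bp, and the files are on dm6. The authors ranked peaks on the irreproducible discovery rate, thresholded them and pooled both replicates. The aligner was not given in the sources used here, and neither was the peak caller. The deposited signal value of each peak is its height relative to a control on an unstated scale, and the deposited score is a whole number up to 1000, at least 830 in the thresholded lists. The summit is the deposited offset from the peak start, an other unit in bp. Depth is unknown.

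The main list had 3406 peaks, of which 13 on other sequences were left out. Genes (13945 protein-coding) came from Ensembl release 115 and sequence from RefSeq's Release 6. A summit was classed by its distance to TSSs and genes. Overlap needed 1 bp, and the value of a replicate came from the overlapping peak of its ranked list with the nearest summit. Noncoding genes counted within 100 bp. Each of 13 words was compared between the summit window and a window centred 500 bp away at lower coordinates, which need not meet the rule, by the exact two-sided McNemar test with Benjamini-Hochberg adjustment (threshold 0.05). Shares have 95% Clopper-Pearson intervals. The word test was checked on simulated data in which summits and flanks had the same base composition. The windows here differ in it, so the check does not cover that difference.

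The genes named were the 12 strongest members found in both replicates, up to 3 per noncoding class and gene list, the 5 gaps with most members, the 3 members farthest from a TSS and those nearest the limit. Of 17 gene lists, all 319 entries matched an annotated gene, with Hr46 and Hr3 of the ecdysone list matching the same one. The members, lists and words were chosen with earlier results of these data known, and features named outside the rule, such as the members beside inv and those with TATCGATA or TAATTA, were named after their values were seen. Alternatives were the conservative list, each replicate left out, other distance limits, merged regions, the upper 50% by signal and other windows. Those on tRNA genes were chosen after seeing the data. The software was matplotlib 3.10.9, pandas 2.3.3, scipy 1.17.1 and numpy 2.4.6 under Python 3.11.15.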

Additional observations from a re-analysis of the deposited data

Results flagged for a closer look

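Peaks outside the main set lay in the same kind of DNA. Of the 150 peaks of the replicate 1 list that meet the rule, 37 overlapped no main-set peak, with a median signal of 51.9 and a highest of 90.5, and 1 of the 37 lay at a tRNA gene. Of the 146 such peaks of the replicate 2 list, 33 overlapped no main-set peak, with a median of 50.6 and a highest of 112, and 5 of the 33 lay at tRNA genes. They are listed because the comparisons above rest on the pooled list, and no control was analysed here to set them against.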

How the results depend on the processing

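The number of members was 135 in the conservative list and 146 to 150 with a replicate left out. The share that overlapped listed peaks of both replicates was 36.3% in the conservative list and 34.1% in the upper 50% of members. At more than 250 bp from a TSS it was 24.3%. With a replicate left out the share is a different one, that of the other replicate's own peaks overlapping the list left out. It was 32.2% of the 146 replicate 2 peaks and 30.7% of the 150 replicate 1 peaks. The share in the upper 50% of the main set was 16.3% in the conservative list and 66.9% when ranked by score, where 82.6% of the main set tie at 1000. Noncoding genes lay at 20.2% of members counting only summits inside the gene, and at 21.3 to 39.7% with a replicate left out. tRNA genes lay at 9.73% and at 4.67 to 27.4% likewise, the lowest without replicate 2. A developmental regulator flanked 7.41% in the conservative list and was the gene of the nearest TSS for 4.28%. Words past the test numbered 4, against 2 in the upper 50% of members, 2 in the conservative list and 1 to 3 with a replicate left out. Differences that changed sign were CAGCTG (-0.741 points in the conservative list and -2.74 to 0 with a replicate left out), AGATAA (-1.33 to 1.37 likewise), CAGGTA (-0.741 in the conservative list) and GTTCGA (-1.86 without the tRNA members). The cause was not tested. For GTTCGA, 23 of the 27 summits with the letters lay at tRNA genes, so leaving those members out removed most of them. Another 99 values for single words kept their side of the threshold, 11 lost the call and 2 gained it (CACGTG without replicate 2, AGATAA in wider windows). No comparison of conditions was possible because the samples form 1 group. Depth is unknown, so no peak could be set against it.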
